A study of Mus musculus with 18 samples.

Results

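Choline and betaine catabolism was described through 9 genes, Chdh, Aldh7a1, Bhmt, Bhmt2, Dmgdh, Sardh, Mtr, Mat2a and Ahcy, in the choroid plexus of MRL/lpr and MRL/+ mice. The genes were taken by symbol from the deposited count table. Dmgdh and Bhmt2 had been selected on their strain difference in these same libraries. The other 7 are further steps of the pathway (Chdh, Aldh7a1, Bhmt and Sardh) and linked enzymes of methionine and homocysteine (Mtr, Mat2a and Ahcy). All 9 were among the 50584 genes of the table and among the 16598 with enough counts to be tested. The strain values of Dmgdh and Bhmt2 are therefore given as a description with no test, and the tests below concern the other 7 genes at each age and all 9 genes between ages.

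In this pathway choline is oxidised in mitochondria to betaine aldehyde by choline dehydrogenase and on to betaine by an aldehyde dehydrogenase, and betaine gives a methyl group to homocysteine, which makes methionine and dimethylglycine. Dimethylglycine and sarcosine dehydrogenases then take off the remaining methyl groups, pass them to folate and pass electrons to the electron transfer flavoprotein, so that glycine is the end product. The pathway is best known from liver and kidney, and the choroid plexus is the ventricular tissue whose epithelium secretes cerebrospinal fluid and carries folate and other solutes into it.

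Libraries came from 4 groups. MRL/lpr mice, which are homozygous for the lpr allele of Fas and develop lupus-like autoimmunity, gave 6 libraries at 12 weeks and 6 at 16 weeks. MRL/+ mice, the related strain without that allele, gave 3 libraries at 12 weeks and 3 at 16 weeks. No treatment is named. By its title, the study is about tertiary lymphoid structures of this tissue in lupus. Whether the libraries within a group are separate animals is not stated in the labels, so a p-value here reflects only the spread among the libraries, which may be technical.

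Total counts ran from 11164284 to 14602253 per library. CPM values are counts relative to library size, scaled by TMM, and RPKM is CPM per kilobase of exon. The summed level of 12 choroid plexus epithelium markers was between 128000 and 244000 CPM in every library, and all 12 were detected. Most of this sum was 1 gene, Ttr, with group means of 153500 to 208400 CPM. Values below that are scaled to the sum therefore follow mainly Ttr. Fas, the gene of the lpr allele, was measured at 1.15 to 5.09 CPM in MRL/lpr and 1.1 to 2.46 CPM in MRL/+ libraries. Its log2 fold changes were 1.09 (SE 0.45, adjusted p = 0.18) at 12 weeks and 0.43 (SE 0.44, adjusted p = 0.53) at 16 weeks by edgeR's quasi-likelihood test. The lpr allele is an intronic insertion, and a count over the whole gene does not check the labels for it. MRL/+ 16 weeks replicate 1 stood apart with 617 CPM of summed skeletal muscle markers, against 43.5 to 104 in the other 17 libraries. MRL/+ 12 weeks replicate 1 had the highest cerebellum sum, 321 CPM. MRL/lpr 12 weeks replicates 1 and 4 had the highest pineal sums, 120 and 94.2 CPM. These 4 are called below the libraries with transcripts of other tissues, and values that change without them are given beside the result. Some libraries that were kept also held such transcripts. Cerebellum sums were 173, 113 and 99.7 CPM in MRL/lpr 16 weeks replicates 1, 2 and 3. In MRL/lpr 12 weeks replicate 2 the cerebellum sum was 155 CPM. Leaving out the 4 thus did not remove all transcripts of other tissues.

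Of the 9 genes, 3 are neighbours on chromosome 13 (GRCm38). Bhmt, the betaine-homocysteine methyltransferase, spans 93616891 to 93637961 on the minus strand. Bhmt2, a related methyltransferase that uses S-methylmethionine as its methyl donor, spans 93655720 to 93674302 on the minus strand. Dmgdh, dimethylglycine dehydrogenase, spans 93674433 to 93752831 on the plus strand. Bhmt2 and Dmgdh stand head to head with 130 bases between their gene models, and 17758 bases separate Bhmt from Bhmt2. The start of Dmgdh is shown because the same stretch holds the start of Bhmt2, and the start of Bhmt is shown as the nearest relative that does not share it. Both are RefSeq windows of GRCm38.p6, 250 bases before to 50 after the start, from the C57BL/6J reference and not from MRL mice. The Dmgdh window is chr13:93674186-93674485 on the plus strand, with the bases between the 2 gene models in capitals. The Bhmt window is chr13:93637709-93638008 on the minus strand, with CpG in capitals.
Dmgdh: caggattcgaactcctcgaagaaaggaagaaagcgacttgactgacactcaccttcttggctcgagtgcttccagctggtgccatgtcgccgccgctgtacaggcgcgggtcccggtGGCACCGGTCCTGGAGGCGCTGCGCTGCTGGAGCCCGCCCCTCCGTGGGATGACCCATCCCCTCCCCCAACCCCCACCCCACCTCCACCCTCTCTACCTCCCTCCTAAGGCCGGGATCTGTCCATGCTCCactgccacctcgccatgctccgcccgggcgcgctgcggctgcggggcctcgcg
Bhmt: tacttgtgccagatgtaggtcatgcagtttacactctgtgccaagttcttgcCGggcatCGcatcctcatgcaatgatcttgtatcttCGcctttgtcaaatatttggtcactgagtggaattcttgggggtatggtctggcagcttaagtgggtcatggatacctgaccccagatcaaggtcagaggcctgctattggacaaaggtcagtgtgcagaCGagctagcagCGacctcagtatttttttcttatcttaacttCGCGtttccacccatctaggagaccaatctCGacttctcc

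The Dmgdh and Bhmt2 windows (chr13:93674253-93674552 for Bhmt2) overlap by 233 bases. Of 32851 RefSeq windows of 27025 genes, 81.6% held fewer CpG than the 25 of Dmgdh and 83.1% fewer than the 26 of Bhmt2. The Bhmt window held 8 CpG, more than 51.4% of windows, and 48% G and C against 68% for Dmgdh and 73.7% for Bhmt2. The 130 bases in capitals held 6 CpG and were 70.8% G and C. Motifs were searched by letter on both strands. GGGCGG matched at 2 places in each of the Dmgdh and Bhmt2 windows, of which 1 lies in the 130 bases between the genes, and nowhere in the Bhmt window. That motif was found in 35.7% of all windows. CCAAT matched at 2 places in the Bhmt window and in neither of the other windows, against 37.4% of all windows. TATAAA (13.6% of all windows), TGACGTCA (1.79%), CCGGAAGT (3.89%) and the NRF1 palindrome (0.971%) matched in none of the 3. A match is a description of letters only.

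Dmgdh, which converts dimethylglycine to sarcosine, was the gene of the 9 with the largest strain difference. At 12 weeks the 6 MRL/lpr libraries held 21.4 to 26.7 CPM (median 23.7), and the 3 MRL/+ libraries held 152.5, 179.1 and 189.3 CPM. At 16 weeks the MRL/lpr libraries held 16.1 to 27.0 CPM (median 22.2), and the MRL/+ libraries held 153.5, 155.6 and 187.5 CPM. Every MRL/lpr library lay below every MRL/+ library, and the highest MRL/lpr value of the study, 27.0, was far below the lowest MRL/+ value, 152.5. These levels rest on 213 to 386 counts per MRL/lpr library and 1596 to 2413 per MRL/+ library. Group means were 23.9 ± 2.3 CPM (SD, n = 6) against 174 ± 19 CPM (n = 3) at 12 weeks and 21.5 ± 4.22 against 166 ± 19 CPM at 16 weeks. The log2 fold change, MRL/lpr against MRL/+, was -2.86 (SE 0.145), 7.27-fold lower, at 12 weeks and -2.95 (SE 0.146), 7.71-fold lower, at 16 weeks. Among 16598 tested genes ordered from the lowest log2 fold change, Dmgdh was number 2 at 12 weeks and number 6 at 16 weeks. In bulk tissue, fewer cells of a type and less RNA per cell cannot be told apart.

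Bhmt2 showed the same order of groups with a smaller difference. At 12 weeks the MRL/lpr libraries held 12.5 to 17.8 CPM (median 13.95), and the MRL/+ libraries held 51.0, 53.6 and 60.6 CPM. At 16 weeks the MRL/lpr libraries held 7.53 to 16.1 CPM (median 12.0), and the MRL/+ libraries held 44.6, 53.8 and 53.0 CPM. No MRL/lpr library reached the lowest MRL/+ library at either age. The log2 fold change was -1.93 (SE 0.18), 3.82-fold lower, at 12 weeks and -2.09 (SE 0.181), 4.26-fold lower, at 16 weeks. Bhmt2 was number 27 and number 18 in the order of log2 fold changes from the lowest.

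**Figure D1:**
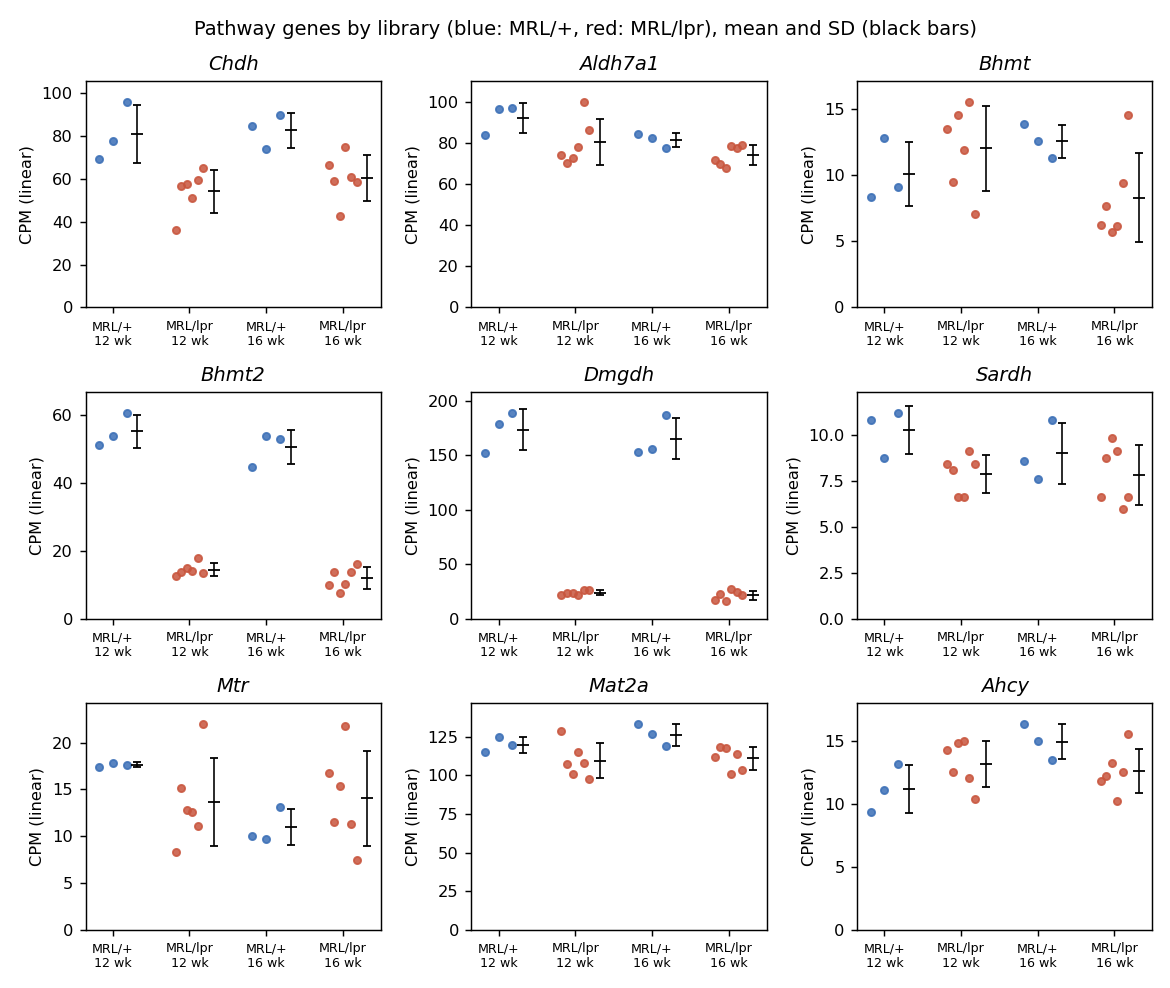
CPM of the 9 genes on linear axes from 0, 1 point per library, with the mean and SD of each group as black bars (MRL/+ in blue, n = 3 per age; MRL/lpr in red, n = 6 per age). In the panels of Dmgdh and Bhmt2 all red points lie below all blue points at both ages, with Dmgdh at 16.1 to 27.0 CPM in MRL/lpr and at 152.5 CPM or more in MRL/+; the other panels mostly overlap.

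The ratio of Dmgdh counts to Bhmt2 counts within a library does not depend on library scaling. It was 1.5 to 1.95 in MRL/lpr at 12 weeks and 1.32 to 2.61 at 16 weeks, against 2.99 to 3.34 and 2.89 to 3.54 in MRL/+. The ranges of the strains did not overlap, so Dmgdh was lower by more than Bhmt2 in every MRL/lpr library. The ratio of Dmgdh to Sardh, which codes for the dehydrogenase of the next step, was 2.53 to 3.61 and 1.63 to 4.08 in MRL/lpr at 12 and 16 weeks. In MRL/+ it was 14.1 to 20.4 and 17.3 to 20.5. The ratio of Bhmt2 to Bhmt was 0.926 to 1.9 and 1.11 to 1.78 in MRL/lpr against 4.17 to 6.66 and 3.22 to 4.68 in MRL/+. These ratios describe the same strain difference in other terms.

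Per kilobase of exon, Dmgdh was the most abundant of the 9 transcripts in MRL/+, with a mean level of 50.9 RPKM at 12 weeks and 48.5 at 16 weeks. Mat2a followed there with 26.7 and 28.2 RPKM, and Bhmt2 with 22.3 and 20.4 RPKM. In MRL/lpr the highest level was that of Mat2a, 24.4 and 24.7 RPKM, followed by Aldh7a1 (15.5 and 14.3) and Chdh (8.83 and 9.83). Dmgdh held 6.99 and 6.29 RPKM in MRL/lpr and Bhmt2 5.85 and 4.81 RPKM. The other genes lay at 1.44 to 5.34 RPKM in every group, with Bhmt and Sardh among the lowest.

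Whether the rest of the pathway and the linked methionine and homocysteine enzymes followed was tested on the other 7 genes. At 12 weeks edgeR's quasi-likelihood test, with Benjamini-Hochberg adjustment over all 16598 genes, called 0 of the 7, while 1 had an unadjusted p under 0.05. DESeq2 called 1 of them and limma's voom with sample weights called 2. Over all genes, edgeR called 1.34% lower and 5.01% higher at that age, 21.4% had an unadjusted p under 0.05, and DESeq2 called 9.09% and voom 21%. At 16 weeks edgeR called 0 of the 7, with 2 at an unadjusted p under 0.05, DESeq2 called 0 and voom 2. Over all genes, edgeR called 2.64% lower and 8.49% higher, 28.8% had an unadjusted p under 0.05, and DESeq2 called 12.5% and voom 29.2%. The median log2 fold change of the 7 was -0.2 at both ages, against -0.013 at 12 weeks and 0.025 at 16 weeks over all genes, with 5 and 6 of the 7 below 0. Scaling libraries to epithelium genes moved the median of all genes, so that 1 to 5 of the 7 lay below 0 under those scalings, but 5 at 12 weeks and 6 at 16 weeks lay below the median of all genes under each scaling.

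Chdh (chromosome 14, 30009023 to 30040466), choline dehydrogenase, opens the pathway and came nearest to the threshold. At 12 weeks the MRL/lpr libraries held 36.0 to 65.1 CPM (median 57.2), below the 69.4, 77.7 and 96.2 CPM of the MRL/+ libraries. The groups did not overlap, and the log2 fold change was -0.58 (SE 0.175, adjusted p = 0.055 by edgeR). Without MRL/lpr 12 weeks replicate 6 it was -0.64 and passed (adjusted p = 0.039), as it did with DESeq2 (adjusted p = 0.046) and voom (0.0034). Under the other alternatives it did not pass: the adjusted p was 0.27 without MRL/+ 12 weeks replicate 3 (-0.44), 0.29 without the 4 libraries with transcripts of other tissues, 0.14 with the epithelium sum, 0.26 with the geometric mean (-0.28) and 0.059 to 0.13 in the rest. At 16 weeks MRL/lpr held 42.6 to 75.1 CPM (median 60.0) and MRL/+ 84.7, 74.0 and 90.0 CPM, with an overlap of the highest MRL/lpr and the lowest MRL/+ library. The log2 fold change was -0.45 (SE 0.175, adjusted p = 0.098), and it was 0.03 (adjusted p = 0.93) with scaling to the epithelium sum and -0.07 (0.74) with the geometric mean, while voom passed it (0.018). Exons of Chdh share 518 bases with those of Cacna1d on the other strand, and the library kit does not mark strand, so reads of shared bases cannot be told apart. Likewise Aldh7a1 shares 300 exonic bases with Phax, Mat2a 508 with Particl and Sardh 188 with Sardhos.

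Every MRL/lpr library was below every MRL/+ library for 1 of the 7 genes at each age, Chdh at 12 weeks and Mat2a at 16 weeks. Of all tested genes, 4.98% at 12 weeks and 8.75% at 16 weeks had groups that stood apart in that direction.

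**Figure D2:**
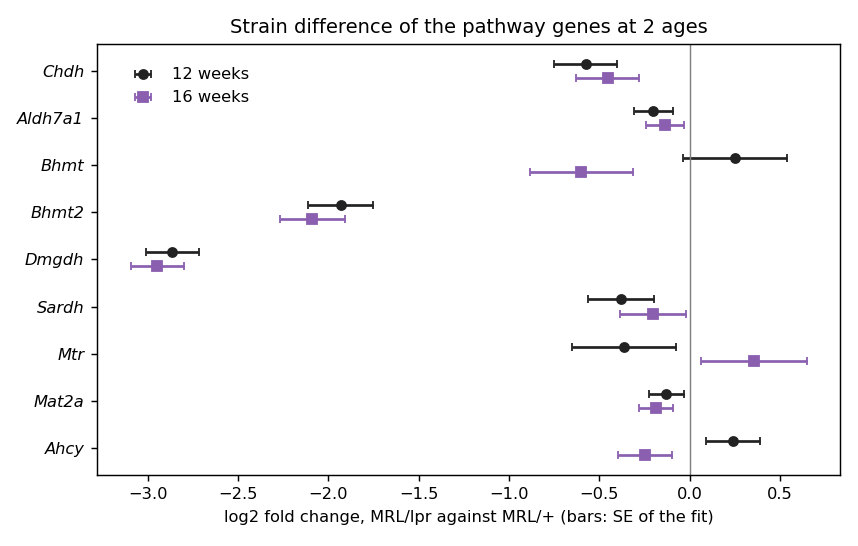
Log2 fold change of MRL/lpr against MRL/+ on the x axis for each of the 9 genes (rows), at 12 weeks (black circles) and 16 weeks (purple squares), with the SE of the edgeR fit as bars. Dmgdh (-2.86 and -2.95) and Bhmt2 (-1.93 and -2.09) lie apart from the other 7 genes, whose values run from -0.60 to 0.35.

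Aldh7a1 (chromosome 18, 56509687 to 56572951), an aldehyde dehydrogenase that oxidises betaine aldehyde, overlapped between the strains. MRL/lpr libraries held 70.3 to 100.1 CPM (median 76.0) at 12 weeks against 83.9, 96.3 and 96.8 CPM in MRL/+. At 16 weeks they held 67.8 to 78.9 CPM (median 74.7) against 84.1, 82.6 and 77.7 CPM. The log2 fold changes of -0.20 (SE 0.107, adjusted p = 0.29) and -0.14 (SE 0.107, adjusted p = 0.39) did not pass.

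Bhmt, the betaine-dependent enzyme and the neighbour of Bhmt2, had values of opposite sign at the 2 ages. At 12 weeks MRL/lpr held 7.11 to 15.6 CPM (median 12.7) and MRL/+ 8.39, 12.9 and 9.10 CPM, with a log2 fold change of 0.25 (SE 0.286, adjusted p = 0.64). At 16 weeks MRL/lpr held 5.73 to 14.6 CPM (median 6.97) and MRL/+ 13.9, 12.6 and 11.3 CPM, with a log2 fold change of -0.60 (SE 0.287, adjusted p = 0.17). The strain difference did not pass at either age, and MRL/lpr replicate 6 at 16 weeks was the only MRL/lpr library of that age above the lowest MRL/+ library. Without that library the value was -0.84 and passed (adjusted p = 0.028). The strain by age interaction of Bhmt was -0.85 (SE 0.405, adjusted p = 0.36).

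Sardh (chromosome 2, 27188393 to 27248337), sarcosine dehydrogenase, is the enzyme most like Dmgdh in reaction. MRL/lpr held 6.61 to 9.15 CPM (median 8.26) at 12 weeks against 10.8, 8.78 and 11.2 CPM in MRL/+, and 5.95 to 9.87 CPM (median 7.71) at 16 weeks against 8.60, 7.602 and 10.9 CPM. The groups overlapped at both ages, and the log2 fold changes were -0.38 (SE 0.183, adjusted p = 0.23) and -0.20 (SE 0.184, adjusted p = 0.46).

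The enzymes that remake and use methionine also overlapped or differed by little. Mtr (chromosome 13, 12186542 to 12258113), the folate-dependent methionine synthase, ranged from 8.34 to 22 CPM in MRL/lpr (median 12.7) at 12 weeks and from 7.46 to 21.8 CPM (median 13.4) at 16 weeks. MRL/+ held 17.4, 17.9 and 17.7 CPM at 12 weeks and 10, 9.75 and 13.2 CPM at 16 weeks, so MRL/lpr libraries lay on both sides of them. The log2 fold changes were -0.37 (SE 0.288, adjusted p = 0.48) and 0.35 (SE 0.292, adjusted p = 0.42). Mat2a (chromosome 6, 72432799 to 72439558) makes S-adenosylmethionine from methionine. It held 97.3 to 128.7 CPM (median 107.7) in MRL/lpr against 114.8, 125.1 and 119.8 CPM in MRL/+ at 12 weeks, which overlapped. At 16 weeks it held 100.8 to 118.3 CPM (median 112.9) against 133.3, 126.6 and 119.0 CPM, with no overlap. Its log2 fold changes of -0.13 (SE 0.0956, adjusted p = 0.46) and -0.19 (SE 0.0957, adjusted p = 0.2) did not pass. Ahcy (chromosome 2, 155059310 to 155074497), which splits S-adenosylhomocysteine into homocysteine and adenosine, held 10.5 to 15.1 CPM (median 13.4) in MRL/lpr at 12 weeks against 9.34, 11.1 and 13.2 CPM. At 16 weeks it held 10.3 to 15.6 CPM (median 12.4) against 16.4, 15.01 and 13.6 CPM. The groups overlapped, with log2 fold changes of 0.24 (SE 0.151, adjusted p = 0.39) and -0.25 (SE 0.151, adjusted p = 0.28).

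Between 12 and 16 weeks, edgeR called none of the 9 genes in either strain. Over all genes 0.0361% were called between ages in MRL/lpr and 0% in MRL/+, where 2173 genes had an unadjusted p under 0.05. In MRL/lpr 1 of the 9 had an unadjusted p under 0.05, and DESeq2 and voom called 0, against 6.73%, 0.512% and 0.127% of all genes. In MRL/+ 1 had an unadjusted p under 0.05, DESeq2 called 0 and voom called 2, against 13.1%, 0.0944% and 10.4% of all genes. The log2 fold change of Dmgdh, 16 against 12 weeks, was -0.15 (SE 0.122, adjusted p = 0.82) in MRL/lpr and -0.07 (SE 0.166, adjusted p = 0.87) in MRL/+. For Bhmt2 it was -0.28 (SE 0.151, adjusted p = 0.77) and -0.13 (SE 0.206, adjusted p = 0.79). The age differences of this pair were thus small beside their strain differences. Bhmt was the gene of the 9 with the smallest p in MRL/lpr, at -0.53 (SE 0.234, adjusted p = 0.69). In MRL/+, Mtr was lower at 16 weeks (-0.68, SE 0.335, adjusted p = 0.38) and Ahcy was higher (0.42, SE 0.174, adjusted p = 0.38), and neither passed.

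The strain by age interaction asks whether the strain difference itself changed with age. edgeR called 0 of the 9 genes, with 1 at an unadjusted p under 0.05 (Ahcy, -0.49, SE 0.213, adjusted p = 0.36), and DESeq2 and voom called 0. Of all genes, 0% were called, with 2286 (13.8%) at an unadjusted p under 0.05, and DESeq2 and voom called 0%. The interaction was -0.08 (SE 0.206, adjusted p = 0.85) for Dmgdh and -0.16 (SE 0.255, adjusted p = 0.76) for Bhmt2. A change of the strain difference with age was thus not detected for them.

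The other genes around the block on chromosome 13 were compared between the strains in the same fit. Of the 5 nearest genes on each side, 6 were tested: Jmy, Homer1, Gm2076, Papd4 and Cmya5 before Bhmt, and Arsb after Dmgdh. Arsb, a lysosomal sulfatase that starts 18.8 kb after Dmgdh, had log2 fold changes of -0.05 (SE 0.227, adjusted p = 0.911) and 0.22 (SE 0.228, adjusted p = 0.533). Scaling to the geometric mean of epithelium genes brought Arsb past the threshold at 16 weeks (0.65, adjusted p = 0.038). Jmy, a regulator of actin assembly 117 kb before Bhmt, fell at 12 weeks by 0.52 on the log2 scale (SE 0.121, adjusted p = 0.0138), from 49.9 ± 2.04 CPM in MRL/+ to 34.8 ± 5.39 CPM in MRL/lpr. At 16 weeks Jmy held 43.5 ± 1.96 and 36.0 ± 3.82 CPM and did not pass (adjusted p = 0.142), while it passed with voom (-0.345, adjusted p = 0.012). Leaving out any 1 of the 3 MRL/+ libraries, or MRL/lpr replicate 4, took the 12-week adjusted p of Jmy to between 0.051 and 0.09. The call of Jmy also ended with no filter (0.054), with only the groups compared (0.06) and with epithelium scaling by the sum (-0.64, 0.13) or the geometric mean (-0.22, 0.36). Papd4, a poly(A) polymerase 425 kb away, rose at 12 weeks by 0.63 (SE 0.155, adjusted p = 0.0239), from 11.4 ± 1.83 to 17.7 ± 2.9 CPM, and its adjusted p was 0.056 to 0.13 when any 1 MRL/+ library was left out. Without the 4 libraries with transcripts of other tissues, neither passed at 12 weeks (adjusted p = 0.27 for Jmy and 0.23 for Papd4). Papd4 also missed the threshold with only the groups compared (0.07) and with scaling to the epithelium sum (0.27). At 16 weeks Papd4 was 0.34 (adjusted p = 0.168), and it passed there with scaling to the epithelium sum (0.82, adjusted p = 0.021) or geometric mean (0.74, adjusted p = 0.032), with voom (0.022) and with the replicate block (0.041).

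Homer1 (-0.24 and -0.43, adjusted p = 0.548 and 0.201) and Gm2076 (0.15 and -0.82, adjusted p = 0.856 and 0.166) did not pass. With voom Homer1 passed at 16 weeks (-0.56, adjusted p = 0.02). Cmya5, a muscle gene 472 kb away, was -0.48 (adjusted p = 0.678) at 12 weeks and passed at 16 weeks at -2.09 (SE 0.611, adjusted p = 0.0303). Its MRL/+ libraries at 16 weeks held 14.7, 1.07 and 1.68 CPM, and the highest is replicate 1, the library with the skeletal muscle markers. Without it the log2 fold change was -0.02 (adjusted p = 0.98). Within 1 Mb of the block, 14 other genes were tested. At 12 weeks 1 was called lower and 2 higher (median log2 fold change -0.09), and at 16 weeks 1 lower and 0 higher (median -0.069). Within 5 Mb, 62 genes were tested, with 1 called lower and 2 higher at each age. Over all genes, 1.34% were called lower and 5.01% higher at 12 weeks and 2.64% and 8.49% at 16 weeks.

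**Figure D3:**
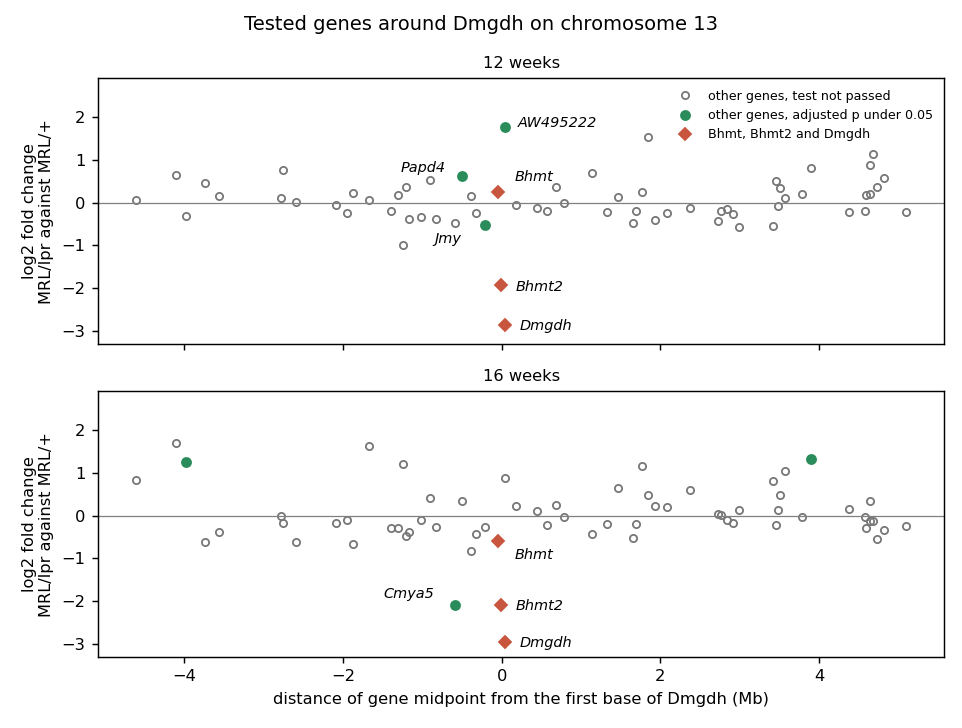
Log2 fold change of MRL/lpr against MRL/+ for tested genes within 5 Mb, against the distance of each gene's midpoint from the first base of Dmgdh in Mb, at 12 weeks (top) and 16 weeks (bottom). Red diamonds are Bhmt, Bhmt2 and Dmgdh, filled green circles other genes with an adjusted p under 0.05 and open circles the rest; Dmgdh and Bhmt2 are the lowest points at 12 weeks, and Cmya5 (-2.09) lies beside Bhmt2 at 16 weeks.

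A transcript inside Dmgdh had the opposite direction and was singled out after its values were seen. AW495222 lies on the minus strand within the Dmgdh gene, at 93706182 to 93719175, and its exons share 215 bases with exons of Dmgdh. At 12 weeks it held 1.96 to 4.43 CPM in MRL/lpr, from 27 to 55 counts, and 0.699, 0.862 and 0.706 CPM in MRL/+, from 9 to 11 counts. AW495222 rose by 1.75 on the log2 scale at that age (SE 0.318, adjusted p = 0.00516), where 5.01% of all genes were called higher. At 16 weeks it held 1.18 to 2.29 CPM in MRL/lpr against 1.23, 0.877 and 0.718 CPM, with a log2 fold change of 0.88 (SE 0.319, adjusted p = 0.0881). It passed there with scaling to the epithelium sum (1.33, adjusted p = 0.015) or geometric mean (1.28, adjusted p = 0.031). Without the 4 libraries that hold transcripts of other tissues, the 12-week value was 1.81 (adjusted p = 0.09). The kit does not mark strand, so reads of the shared bases cannot be assigned to either gene. AW495222 held 399 counts over all 18 libraries, against 16346 for Dmgdh.

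Genes with the profile most like that of Dmgdh were found by the root mean square difference of log2 CPM, centred on each gene's mean, over the 18 libraries. The nearest was Bhmt2, at 0.465, where the profile of Dmgdh itself has a root mean square of 1.38. The next were Dlx3 (0.688), Tlx2 (0.689), Dlx4 (0.708) and Mcoln3 (0.714), of which Dlx3, Tlx2 and Dlx4 are homeobox genes and Mcoln3 is a cation channel. They lie on chromosomes 11, 6, 11 and 3. For Bhmt2, whose own root mean square is 0.99, the nearest were Dlx4 (0.389), Mcoln3 (0.436), Dlx4os (0.46), Dmgdh (0.465) and Grhl2 (0.498), an epithelial transcription factor on chromosome 15. The like genes other than Bhmt2 and Dmgdh themselves were expressed at far lower levels than Dmgdh. Mean CPM in MRL/+ at 12 and 16 weeks was 6.62 and 6.67 for Tlx2, 4.29 and 4.53 for Mcoln3 and 2.80 and 2.72 for Dlx4. In MRL/lpr it was 1.1 and 2.03 for Tlx2, 1.63 and 1.31 for Mcoln3 and 0.717 and 0.700 for Dlx4. Dlx3, Dlx4os and Grhl2 were lower still, at 0.267 and 0.178, 0.397 and 0.281, and 0.175 and 0.115 CPM in MRL/lpr. In MRL/+ they held 1.29 and 1.33, 1.29 and 1.46, and 0.521 and 0.918 CPM, so their profiles rest on few counts. The likeness was computed over the same libraries that show the strain difference, so it is a description with no test, and Dlx4 and its antisense transcript Dlx4os cannot be told apart where their exons overlap.

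Around the 9 genes, 5 lists of related genes held 49 genes, of which 46 were tested. At 12 weeks 0 of the 46 were called higher and 3 lower, and at 16 weeks 1 higher and 2 lower. Over all genes the shares were 5.01% higher and 1.34% lower at 12 weeks and 8.49% and 2.64% at 16 weeks. The median log2 fold change of the 46 was -0.0021 and -0.17, against -0.013 and 0.025 over all genes. At an unadjusted p under 0.05 stood 21.4% of all genes at 12 weeks and 28.8% at 16 weeks, and voom called 21% and 29.2% and DESeq2 9.09% and 12.5%, against which the counts of each list are to be read. For choline uptake and its use for phospholipid, 1 of 13 tested genes was lower at each age (medians -0.17 and -0.14). Pcyt1b, which makes the activated CDP-choline for phosphatidylcholine synthesis, fell at 12 weeks by 0.41 on the log2 scale (SE 0.103, adjusted p = 0.0209), from 29.2 ± 3.25 to 21.9 ± 2.22 CPM. Chpt1, the cholinephosphotransferase that completes phosphatidylcholine, fell at 16 weeks by 0.57 (SE 0.151, adjusted p = 0.0192), from 98.4 ± 15.5 to 66.2 ± 8.71 CPM. Pcyt1b was 0.06 at 16 weeks and Chpt1 -0.23 at 12 weeks, and neither passed there.

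Electron transfer flavoprotein takes the electrons of Dmgdh and Sardh and hands them to its oxidoreductase Etfdh. Of Etfa, Etfb and Etfdh, edgeR called 0 at 12 weeks, where 0 also had an unadjusted p under 0.05 and DESeq2 and voom called 0. At 16 weeks Etfdh fell by 0.57 (SE 0.148, adjusted p = 0.0172), from 155 ± 8.73 to 104 ± 15.7 CPM. Etfa at -0.73 (adjusted p = 0.0598) and Etfb at -0.70 (adjusted p = 0.0808) did not pass, and DESeq2 called 2 of the 3 and voom 3. The list's median was 0.11 at 12 weeks and -0.7 at 16 weeks.

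Among genes of methionine and homocysteine metabolism, 2 of 9 tested fell at 12 weeks, Mtrr and Mmachc. Mtrr, which reactivates Mtr, fell by 0.37 (SE 0.105, adjusted p = 0.0413), from 15.6 ± 1.05 to 12.1 ± 1.04 CPM. Mmachc, which processes cobalamin, fell by 0.42 (SE 0.122, adjusted p = 0.0489), from 21.5 ± 2.41 to 16.1 ± 2.15 CPM. Mmadhc, another cobalamin gene of the list, was 0.09 (adjusted p = 0.781). At 16 weeks edgeR called 0 of the 9, with 7 at an unadjusted p under 0.05, DESeq2 called 0 and voom 6. The list's medians were -0.23 and -0.41. In the folate list, edgeR called 0 of 13 at 12 weeks (2 at an unadjusted p under 0.05, DESeq2 0 and voom 3). At 16 weeks Mthfd1l, a mitochondrial formyltetrahydrofolate synthetase, rose by 2.06 (SE 0.5, adjusted p = 0.0179), from 0.803 ± 0.294 to 3.35 ± 1.76 CPM. The folate list's medians were 0.064 and -0.086. For glycine and serine breakdown edgeR called 0 of 8 at both ages, with 2 and 1 at an unadjusted p under 0.05, DESeq2 0 and 0, and voom 1 and 2. The smallest p of that list belonged to Dld, a dehydrogenase subunit of the glycine cleavage system, at 16 weeks (-0.77, SE 0.314, adjusted p = 0.112).

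None of the 6 calls in these lists held under every alternative. Leaving out any 1 of the 3 MRL/+ libraries of the age ended the call of Pcyt1b (adjusted p 0.063 to 0.17), Mtrr (0.076 to 0.21), Mmachc (0.099 to 0.25), Etfdh (0.05 to 0.089) and Mthfd1l (0.053 to 0.11). That of Chpt1 was lost without MRL/+ 16 weeks replicate 1 (0.071) or 3 (0.13). The calls of Mtrr and Mmachc were also lost without any 1 of MRL/lpr 12 weeks replicates 1 to 4 (0.059 to 0.096), and that of Mmachc without replicate 6 (0.056). Without the 4 libraries with transcripts of other tissues all 6 missed the threshold, at adjusted p 0.088 to 0.48. With libraries scaled to the sum of epithelium markers, Etfdh at 16 weeks was -0.13 (adjusted p = 0.37) and Chpt1 -0.11 (0.56), and with their geometric mean -0.20 (0.38) and -0.16 (0.51). Under the same scalings Pcyt1b, Mtrr and Mmachc missed the threshold (0.13 to 0.26 with the sum, and 0.75 to 0.84 with the geometric mean, where their log2 fold changes were -0.10, -0.07 and -0.11). These 3 also missed it with no filter on low counts (0.12 to 0.25) and with only the groups compared in the fit (0.1 to 0.15), and Mtrr and Mmachc with RLE size factors (0.071 and 0.077). Mthfd1l missed it with only the groups compared (0.061).

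**Figure D4:**
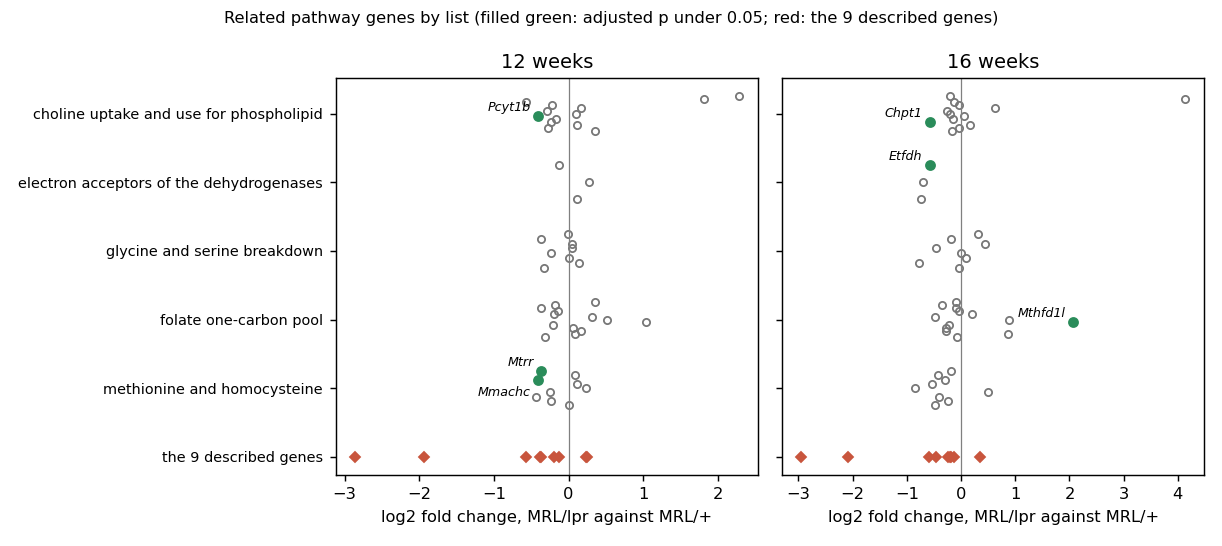
Log2 fold change of MRL/lpr against MRL/+ (x axis) for the 46 tested genes of the 5 related lists (rows) and the 9 described genes (red diamonds), at 12 weeks (left) and 16 weeks (right); filled green points have an adjusted p under 0.05. Dmgdh and Bhmt2 are the 2 red points below -1.9 at each age, and 3 green points per panel mark the calls.

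Among the markers of other cells, those of leukocytes had the most calls between the strains. Of 10 leukocyte markers, 9 rose at 12 weeks and 10 at 16 weeks, and their summed level was 340 to 1000 CPM and 123 to 2580 CPM in MRL/lpr against 8.64 to 12.2 and 8.46 to 12.9 CPM in MRL/+. No marker of the 10 was at 0 in all libraries. Their part in the Dmgdh and Bhmt2 result was not tested. In the MRL/lpr library with the lowest leukocyte sum, 123 CPM at 16 weeks (replicate 6), Dmgdh was at 21.4 CPM and Bhmt2 at 16.1 CPM. In the library with the highest sum, 2580 CPM (replicate 1 at 16 weeks), they were at 17.1 and 9.75 CPM. Between these sums, replicate 3 at 16 weeks (804 CPM) held 16.1 CPM of Dmgdh and 7.53 CPM of Bhmt2. Replicate 4 at 16 weeks (1310 CPM) held 27.0 and 10.3 CPM. Replicate 5 at 16 weeks (853 CPM) held 24.29 and 13.8 CPM, and replicate 2 at 16 weeks (2370 CPM) held 23.03 and 13.65 CPM. Of the 12 epithelium markers, edgeR called 0 at 12 weeks (2 at an unadjusted p under 0.05, DESeq2 1 and voom 7). At 16 weeks 1 was lower (Prlr, -1.1, adjusted p = 0.044), with 6 at an unadjusted p under 0.05, DESeq2 2 and voom 5. Most of the 12 had log2 fold changes below 0 at both ages. Over all genes, edgeR called 1.34% lower and 5.01% higher at 12 weeks and 2.64% and 8.49% at 16 weeks. An unadjusted p under 0.05 was found for 21.4% and 28.8%. DESeq2 called 9.09% and 12.5% of all genes and voom 21% and 29.2%. The counts of each marker list are to be read against these shares. The epithelium sum was 150000 to 231000 CPM in MRL/lpr and 140000 to 190000 CPM in MRL/+ at 12 weeks, and 128000 to 220000 against 198000 to 244000 CPM at 16 weeks. Liver markers, whose tissue expresses this pathway strongly, summed to at most 0.789 CPM in any library, and Cps1, Cyp2e1 and Ahsg were at 0 counts in all 18. Kidney tubule markers summed to at most 12.1 CPM, with Umod and Kap at 0 in all, and of the 2 tested edgeR called 0 at both ages (1 and 0 at an unadjusted p under 0.05, DESeq2 0 and 0, voom 1 and 0). Of 5 fibroblast markers Dcn rose at 12 weeks (0.85, adjusted p = 0.029) and Lum fell at 16 weeks (-0.91, adjusted p = 0.041), and their summed level was 368 to 715 CPM in MRL/lpr and 340 to 659 CPM in MRL/+. Both tested skeletal muscle markers fell at 16 weeks, Mylpf by 4.81 (adjusted p = 0.0028) and Pygm by 0.63 (adjusted p = 0.019). Without MRL/+ 16 weeks replicate 1 the values were -0.29 for Mylpf (adjusted p = 0.67), -0.53 for Pygm (0.12) and -0.81 for Lum (0.17). Of 29 tested markers of pineal gland, cerebellum, pituitary, endothelium, ependyma and astrocytes, edgeR called 0 at both ages, with 4 and 2 at an unadjusted p under 0.05, and DESeq2 called 2 and 1 and voom 1 and 1. The part of these cells in the Dmgdh and Bhmt2 result was not tested. With libraries scaled to the sum of the epithelium markers, which is mostly Ttr, Dmgdh was -2.99 at 12 weeks and -2.49 at 16 weeks. Bhmt2 was -2.07 and -1.67. Relative to the median of all genes under each scaling, Dmgdh was between -2.83 and -3, and Bhmt2 between -1.91 and -2.17.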

How the data were processed

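RNA of the choroid plexus was sequenced in 18 libraries, prepared with the TruSeq RNA v2 kit, per the labels. The deposited values are raw counts of reads per gene, for 50584 genes, which the authors made with STAR 2.5.3a on GRCm38 and featureCounts 1.26.0, per the submitters' processing notes, which also name DESeq2 1.16.1. The exon coordinates and the exonic length of each gene stand in the same deposited table. Not given in the sources used here are the annotation release, the strand setting and the handling of reads with several alignments. Total counts were 11164284 to 14602253, and no pair of libraries within a group was alike within sampling noise (36 pairs, smallest chi-square per gene 5.53).

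Counts were filtered with filterByExpr by group, scaled by TMM and fitted with edgeR 4.0.16 (limma 3.58.1, R 4.3.3), with robust quasi-likelihood, 1 mean per group and all 18 libraries. P-values were adjusted by Benjamini-Hochberg over 16598 genes and called at 0.05. Log2 CPM used a prior count of 2. The fit was tested on simulated data. The alternatives were DESeq2 1.42.0, voom, other scalings, no filter, only the groups compared, the replicate number as a block and leaving out libraries. The members and lists were chosen with earlier results of these data known. Genes named by rule are the members, the tested ones of the 5 nearest genes on each side and the 5 most alike in profile. Per pathway list they are those called or else the smallest p. Other genes named, among them AW495222, Etfa, Etfb and Mmadhc, fall outside this rule. Lists used were pathway lists and markers of epithelium, leukocytes, liver, kidney tubule, skeletal muscle, cerebellum, pineal gland, pituitary, fibroblasts, endothelium, ependyma and astrocytes. RefSeq start windows were matched by symbol for 8 of 9 members. Flvcr1 and Flvcr2 were not analysed here, and Mat1a had too few counts to be tested.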

Additional observations from a re-analysis of the deposited data

How the results depend on the processing

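The strain values of Dmgdh and Bhmt2, which this contrast chose, are given as a range with no test. Dmgdh ran from -2.99 to -2.56 at 12 weeks and from -3.08 to -2.49 at 16 weeks, and Bhmt2 from -2.07 to -1.63 and from -2.24 to -1.67. Scaling to the sum of epithelium markers, which is mostly Ttr, gave -2.49 for Dmgdh and -1.67 for Bhmt2 at 16 weeks. Scaling to their geometric mean, chosen after seeing the data, gave -2.56 and -1.63 at 12 weeks and -2.57 and -1.71 at 16 weeks. The sum moved the median of all genes to -0.16 at 12 weeks and 0.51 at 16 weeks, and the geometric mean to 0.29 and 0.43. At 12 weeks 832 genes were called higher and 223 lower, against 485 and 48 with the sum and 1108 and 15 with the geometric mean. At 16 weeks these were 1410 and 439, 2122 and 41, and 3457 and 42.

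Of the 7 genes that the strain contrast did not choose, voom called 2 at 12 weeks (Chdh and Aldh7a1) and 2 at 16 weeks (Chdh and Bhmt). The shares of all genes that voom called were 21% and 29.2%. Between ages in MRL/+, voom called 2 of the 9 genes (Mtr and Ahcy), against 10.4% of all genes. The causes were not tested. Of 252 tests of the other 7 genes between strains under alternatives, 7 passed, among them the voom calls above. These tests refit the same genes in the same libraries and are not separate evidence. The number of all genes called also differed widely between alternatives, so the 7 are not a rate for these genes. Cmya5 at 16 weeks was 0.0127 without the 4 libraries with transcripts of other tissues. Over all genes, 1055 calls at 12 weeks became 3490 with voom, 1656 with DESeq2, 533 with the epithelium sum, 34 without those 4 libraries and 259 to 1463 when 1 library was left out. The 1849 calls at 16 weeks became 4849 with voom, 3499 with the geometric mean, 503 without the 4 libraries and 665 to 2596 when 1 was left out. Between ages, 6 calls in MRL/lpr became 84 with DESeq2 and 21 with voom, and 0 in MRL/+ became 12 and 1724.

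With the replicate number as a block, edgeR called none of the 7 genes that the strain contrast did not choose at either age (Chdh nearest, adjusted p = 0.068 at 12 weeks). Of all 16598 genes, that fit called 1092 at 12 weeks and 1424 at 16 weeks. The values of Dmgdh there were -2.98 and -3.08, as a description. The titles give the replicate only as a number, and whether same-numbered libraries share a batch cannot be told from it. Correlations of the deviations of same-numbered libraries in 15 pairs ran from -0.62 to 0.45, with 4 over 0.1. Under the block Mtrr (adjusted p = 0.052), Mmachc (0.058), Chpt1 (0.062) and Cmya5 (0.18) missed the threshold and Papd4 at 16 weeks passed it (0.041).

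MRL/+ had 3 libraries per age, so small differences of the lower genes, such as Bhmt and Sardh at about 10 CPM, were measured with SE of 0.18 to 0.29 on the log2 scale.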
